A study of Mus musculus with 24 samples.

Results

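Skeletal muscle genes were followed through RNA sequencing of mouse fat. They are 54 genes of the contractile apparatus, the calcium system and the energy metabolism of striated muscle, and all 54 were found among the 30699 gene identifiers of the deposited tables. The members were listed after muscle genes had been seen to vary between the brown fat libraries, so their values in brown fat are given as a description and support nothing. C57BL/6 mice were given antimiR-224, antimiR-452 or scramblemiR under the skin on 2 occasions at 25 mg/kg. AntimiR-224 and antimiR-452 are antisense oligonucleotides of locked nucleic acid against the microRNAs miR-224 and miR-452, and scramblemiR has a scrambled sequence. Brown adipose tissue (BAT) and white adipose tissue (WAT) were sequenced from each treatment, which gave 6 groups of 4 libraries. The groups are BAT antimiR-224, BAT antimiR-452, BAT scramblemiR, WAT antimiR-224, WAT antimiR-452 and WAT scramblemiR. The labels give neither age nor sex, do not name the fat depots, and do not say that each library came from its own mouse, so p-values measure the spread between these samples. In bulk tissue, fewer cells of a type and less RNA per cell cannot be told apart.

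Skeletal muscle contracts when filaments of myosin slide along filaments of actin. Calcium released from the sarcoplasmic reticulum binds troponin C on the actin filament and starts the movement, and a calcium pump then ends it. Fast fibres and slow fibres use different genes for many of these parts, and several slow genes are shared with the heart. Brown fat lies next to skeletal muscle between the shoulder blades, and brown adipocytes share a developmental origin with muscle.

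The scramblemiR controls had 16960694 to 20255777 reads in genes per BAT library and 22175430 to 27935908 per WAT library. Only group means were deposited, and the reads of each library were recovered from the digits of those means. Libraries are numbered within a group by descending size factor, and this number cannot be tied to the sample titles. Normalized counts are reads divided by the size factor of the library. A count of 0 reads allows up to 3 reads, which are worth 2.4 to 3.5 normalized counts, and this limit covers counting error only. All 54 members were recovered in each WAT group and in BAT scramblemiR, but only 15 in BAT antimiR-224, 14 in BAT antimiR-452 and 10 in all 12 BAT libraries, since high means often had several solutions. The BAT label was checked against its markers: 12 of 13 brown adipocyte genes were higher in BAT scramblemiR than in WAT scramblemiR by limma with Benjamini-Hochberg adjustment, and Ucp1, the uncoupling protein of heat production, had 43938, 68550, 130764 and 103464 normalized counts in BAT scramblemiR, against 180, 5.64, 1.04 and 12.6 in WAT scramblemiR.

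The members switch on together in muscle, where MyoD family factors bind E-boxes, so promoters of 4 members are shown: the fast myosin Myh4, the skeletal actin Acta1, the muscle creatine kinase Ckm and the slow troponin C Tnnc1. Each line holds the 250 bases before the RefSeq start (RefSeq, GRCm38.p6), with the E-box CAGCTG in capitals.
Acta1: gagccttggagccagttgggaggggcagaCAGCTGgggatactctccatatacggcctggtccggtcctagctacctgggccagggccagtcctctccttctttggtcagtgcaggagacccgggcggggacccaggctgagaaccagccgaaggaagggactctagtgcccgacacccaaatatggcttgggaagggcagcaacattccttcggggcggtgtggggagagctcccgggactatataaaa
Ckm: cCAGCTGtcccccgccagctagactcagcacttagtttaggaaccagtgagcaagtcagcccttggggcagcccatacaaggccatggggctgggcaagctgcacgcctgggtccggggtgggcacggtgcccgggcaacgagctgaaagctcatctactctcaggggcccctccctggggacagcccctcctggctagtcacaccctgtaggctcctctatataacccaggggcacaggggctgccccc
Myh4: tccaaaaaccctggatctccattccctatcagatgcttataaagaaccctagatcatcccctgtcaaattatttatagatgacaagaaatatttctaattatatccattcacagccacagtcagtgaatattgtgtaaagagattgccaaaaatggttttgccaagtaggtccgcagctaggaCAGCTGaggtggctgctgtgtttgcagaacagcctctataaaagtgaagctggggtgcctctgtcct
Tnnc1: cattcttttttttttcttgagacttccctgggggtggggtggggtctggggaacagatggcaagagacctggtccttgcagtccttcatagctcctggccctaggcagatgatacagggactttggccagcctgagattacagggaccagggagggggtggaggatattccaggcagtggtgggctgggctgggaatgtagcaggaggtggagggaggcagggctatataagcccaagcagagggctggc
These windows lie at chr8:123894776-123895025 on the minus strand for Acta1, chr7:19410844-19411093 on the plus strand for Ckm, chr11:67237562-67237811 on the plus strand for Myh4 and chr14:31208062-31208311 on the plus strand for Tnnc1. CAGCTG began 221 bases before the start in Acta1, 249 in Ckm and 67 in Myh4. Tnnc1 had no CAGCTG in its window, but it did hold the looser E-box CANNTG. The RefSeq start of Ckm lies 6318 bases inside the gene model used for its exon length, and the starts of Acta1 and Myh4 lie 24 and 217 bases from theirs. Promoters of 39 of 54 members were in the RefSeq table. CAGCTG, which reads the same on both strands, was in 18 of them (46.2%), against 13.1% of 32536 promoters of the same length. The looser CANNTG, which includes it, was in 84.6% of member promoters and 66.2% of all. The binding site of MEF2, a factor that acts with MyoD, was in 9 member promoters (23.1%, against 2.89% of all). The CArG box of serum response factor was in 5 (12.8%, against 1.48%), and TATAAA in 6 (15.4%, against 12.3%), each searched on both strands. These matches describe letters in a window and show no binding.

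The members made up very different parts of the 4 BAT scramblemiR libraries. They held 8.64% of all reads in genes in library 1 and 8.42% in library 2, but 0.0361% in library 3 and 0.0379% in library 4. In the WAT scramblemiR libraries they held 0.0172% to 0.0341%. Over group means, the members held 1.13% of the BAT antimiR-224 signal against 4.32% in BAT scramblemiR, and 6.06% of the BAT antimiR-452 signal against 4.31% in BAT scramblemiR. The control share differs slightly between both tables because each was normalized on its own. Both BAT comparisons share these 4 control libraries, as both WAT comparisons share theirs.

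All 54 members differed by at least 10-fold between the highest and the lowest BAT scramblemiR library, after 1 was added to each value, as did 4.25% of all genes with a mean of 10 or more. The highest library was library 1 for 31 members and library 2 for 23, against 26.2% and 18.7% of all genes. Among the 40 members with more than 3 reads in their lowest library, the median ratio of the highest to the lowest library was 1369. The largest ratio was 4982 for Actn3, the fast fibre actinin of the Z-disc. The smallest were 12.4 for Pfkm, 21.5 for Des, 34.9 for Myl1 and 35.5 for Casq2. All of this spread lies within 1 control group.

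Of the thick filament, Myh4, the fastest myosin heavy chain, had 248300 and 277781 normalized counts in BAT scramblemiR libraries 1 and 2, and 107 and 229 in libraries 3 and 4. Myh1, another fast heavy chain, had 43698, 44958, 18 and 15.2. Myh2, the fast oxidative heavy chain, had 15251, 20060, 12.7 and 2.17. All 3 fast chains were thus high in the same pair of libraries. Myh7, the slow heavy chain also used in heart, had 25908 in library 1, 2731 in library 2, 11.6 in library 3 and 1.1 in library 4. The light chain Mylpf of fast fibres had 22851, 25274, 33.9 and 30.4, and the fast light chain Myl1 had 13335, 14836, 522 and 425. The light chains were high in the same pair of libraries as the fast heavy chains. Myh2, Myh1 and Myh4 lie side by side on chromosome 11 of GRCm38 (67171027 to 67260446, plus strand) and are closely alike in sequence, so the split of reads among them is uncertain.

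Of the thin filament, Acta1, the actin of skeletal muscle, had 163092, 174138, 87.9 and 178 normalized counts in BAT scramblemiR libraries 1 to 4. Tnnc2, the troponin C of fast fibres, had 28946, 33649, 20.1 and 35.9. Tnnc1, its slow and cardiac relative, had 4126, 497, 16.9 and 3.26. Fast and slow troponin C were thus split like the fast and slow heavy chains, with library 1 far above library 2 for the slow gene only. Of the calcium system, Atp2a1, the fast fibre pump that returns calcium to the store, had 207747, 229299, 88.9 and 204. Pvalb, a calcium buffer of fast fibres, had 20110, 29189, 20.1 and 38.1. Sln, the small inhibitor of the pump, had 473, 31.0, 0 and 0. Casq2, a calcium binder of the store in slow fibres and heart, had 1274, 310, 52.9 and 35.9. Sln was not detected in the low libraries, whereas Casq2 stayed above 30 counts in all 4.

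Of the energy metabolism, Ckm had 79226, 93251, 57.2 and 93.5 normalized counts in BAT scramblemiR libraries 1 to 4. Mb, the oxygen-binding myoglobin, had 18063, 17822, 458 and 659. Pfkm, the muscle form of the glycolytic enzyme phosphofructokinase, had 22594, 23615, 1906 and 2283. Mb and Pfkm were highest in the same pair of libraries as Ckm, but by smaller ratios. Of the cytoskeleton, Des, the intermediate filament protein desmin, had 35994, 26709, 1671 and 1857. Xirp1, a scaffold protein of muscle, had 1938, 6757, 18 and 8.70 and had the lowest ratio of library 1 to library 2 among the members.

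**Figure D1:**
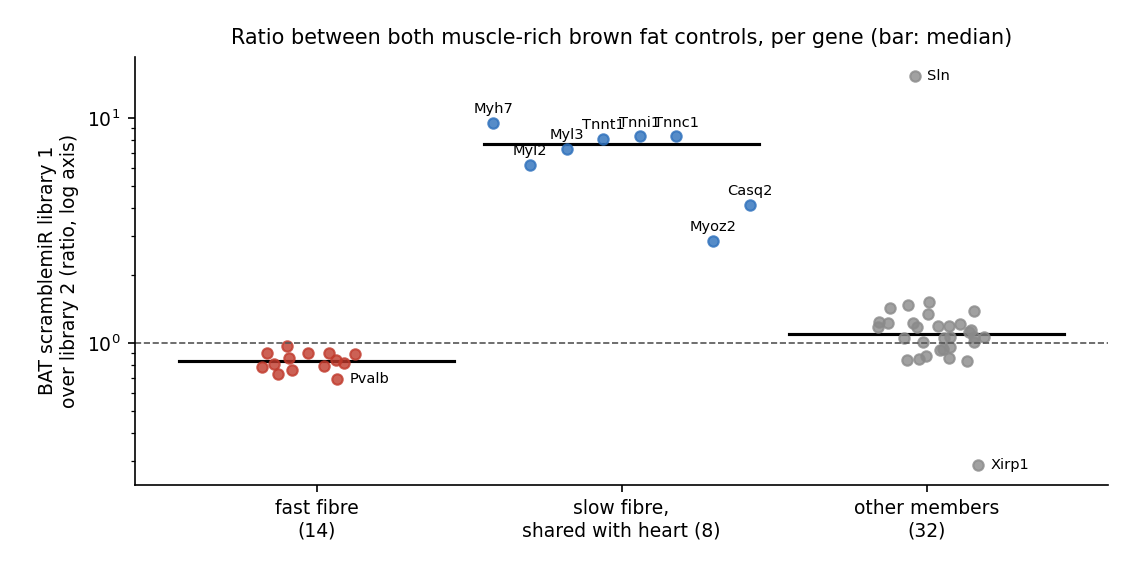
Normalized count in BAT scramblemiR library 1 divided by that in library 2 (log axis) for each of the 54 members, grouped by fibre type. Fast members lie between 0.689 and 0.972, slow members between 2.84 and 9.49.

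The 2 muscle-rich control libraries did not hold the same mix of fibre genes. The ratio of library 1 to library 2 was below 1 for 14 of 14 fast members, with a median of 0.83 (0.689 for Pvalb to 0.972 for Myh1). It was above 1 for 8 of 8 slow members, with a median of 7.68 (2.84 for Myoz2, a Z-disc protein of slow fibres, to 9.49 for Myh7). The median over all 54 members was 1.06, and over all genes with a mean of 10 or more 0.994. Outside both classes, the ratio was highest for Sln at 15.3 and lowest for Xirp1 at 0.287. Myh7 made up 7.78% of the counts of the 4 heavy chains in library 1, 0.790% in library 2, 7.80% in library 3 and 0.439% in library 4. The levels of Myh7 in libraries 3 and 4 rest on few reads. Slow Tnni1 stood at 17.9% of fast Tnni2 in library 1 and 1.69% in library 2, and slow Tnnt1 at 11.2% of fast Tnnt3 in library 1 and 1.0% in library 2. These troponins hold the regulatory complex on the actin filament.

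The muscle-rich libraries also carried other genes of muscle. A list of 28 further striated muscle genes had 10 members recovered in all 12 BAT libraries, with a geometric mean of 345, 16.4, 8.24 and 9.97 normalized counts in BAT antimiR-224, 995, 20.3, 9.22 and 73.6 in BAT antimiR-452, and 1624, 386, 8.46 and 9.37 in BAT scramblemiR. Myf6, a MyoD family factor of mature fibres, had 518, 5.85, 7.94 and 3.50 in BAT antimiR-224, 1502, 38.8, 0 and 86.8 in BAT antimiR-452, and 966, 627, 1.06 and 0 in BAT scramblemiR. Myf6 was thus high in the same libraries as the members. The 6 myogenic factors and satellite cell genes together had geometric means of 22.6, 1.13, 0.441 and 0.461 in BAT antimiR-224, 77.4, 1.70, 0 and 4.27 in BAT antimiR-452, and 105, 28.5, 0.128 and 0 in BAT scramblemiR. The 7 genes of the neuromuscular junction had 43.8, 2.13, 1.83 and 2.54 in BAT antimiR-224, 141, 2.5, 0.864 and 12.4 in BAT antimiR-452, and 178, 40.3, 1.47 and 1.36 in BAT scramblemiR.

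Among genes of developing muscle, 3 named after their values were seen were highest in BAT scramblemiR library 1. Myh3, the embryonic heavy chain, had 65.5, 4.18, 0 and 0 in BAT antimiR-224, 72.8, 0.971, 3.01 and 4.14 in BAT antimiR-452, and 2861, 58.0, 0 and 1.1 in BAT scramblemiR. Myh8, the perinatal heavy chain, had 141, 1.67, 0 and 0 in BAT antimiR-224, 1153, 3.88, 0 and 64.1 in BAT antimiR-452, and 3114, 363, 0 and 0 in BAT scramblemiR. Chrng, the fetal subunit of the acetylcholine receptor, had 5.59, 0, 0 and 0 in BAT antimiR-224, 7.71, 0, 0 and 0 in BAT antimiR-452, and 185, 0, 0 and 0 in BAT scramblemiR. That library lay above all other BAT libraries for each of the 3 genes. Of 9 heart genes, 7 were recovered in all 12 BAT libraries, with geometric means of 9.36, 4.88, 1.82 and 3.27 in BAT antimiR-224, 7.63, 2.80, 3.07 and 2.88 in BAT antimiR-452, and 23.6, 13.4, 2.66 and 2.85 in BAT scramblemiR. They were thus highest in library 1 of each group. Myl4, a light chain of the atrium and of embryonic muscle, had 1174, 80.3, 69.9 and 37.0 in BAT scramblemiR. Ankrd1, a stress-responsive protein of heart and skeletal muscle, had 309.7, 97.7, 0 and 4.35 there. Myh6, the atrial and mouse ventricular heavy chain, reached at most 55.5 in any BAT library, and Myl7 of the atrium had 0 in 11 of the 12 BAT libraries and 1.0 in the other. The 8 smooth muscle genes had geometric means of 70.4 to 157 in BAT antimiR-224, 109 to 140 in BAT antimiR-452 and 112 to 180 in BAT scramblemiR. Among them Lmod1, a relative of Lmod3, was high in the muscle-rich libraries, with 327, 92.7, 62.4 and 81.6 in BAT antimiR-224, 995, 90.3, 83.3 and 118 in BAT antimiR-452, and 357, 391.7, 80.5 and 73.9 in BAT scramblemiR.

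Genes of other cell types were read in the same BAT libraries. The globin Hba-a1, 1 of 6 erythroid genes listed and named after its values were seen, had 104, 122, 3650 and 1653 in BAT scramblemiR libraries 1 to 4. It was thus low in the muscle-rich control libraries. The other erythroid genes and the inhibitor groups are not printed here, so Hba-a1 does not stand for erythroid genes in general. Brown adipocyte genes, by 6 recovered of 13, had geometric means of 334, 467, 509 and 534 in BAT antimiR-224 libraries 1 to 4. They had 285, 413, 364 and 403 in BAT antimiR-452, and 585, 446, 527 and 735 in BAT scramblemiR. Library 1 was lowest in both inhibitor groups and library 2 in BAT scramblemiR, where library 1 was above library 3. Ucp1, given further above, was lower in BAT scramblemiR libraries 1 and 2 than in libraries 3 and 4, so the means of these 6 genes do not stand for every brown adipocyte gene. The part of these other cell types in the members' values was not tested.

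**Figure D2:**
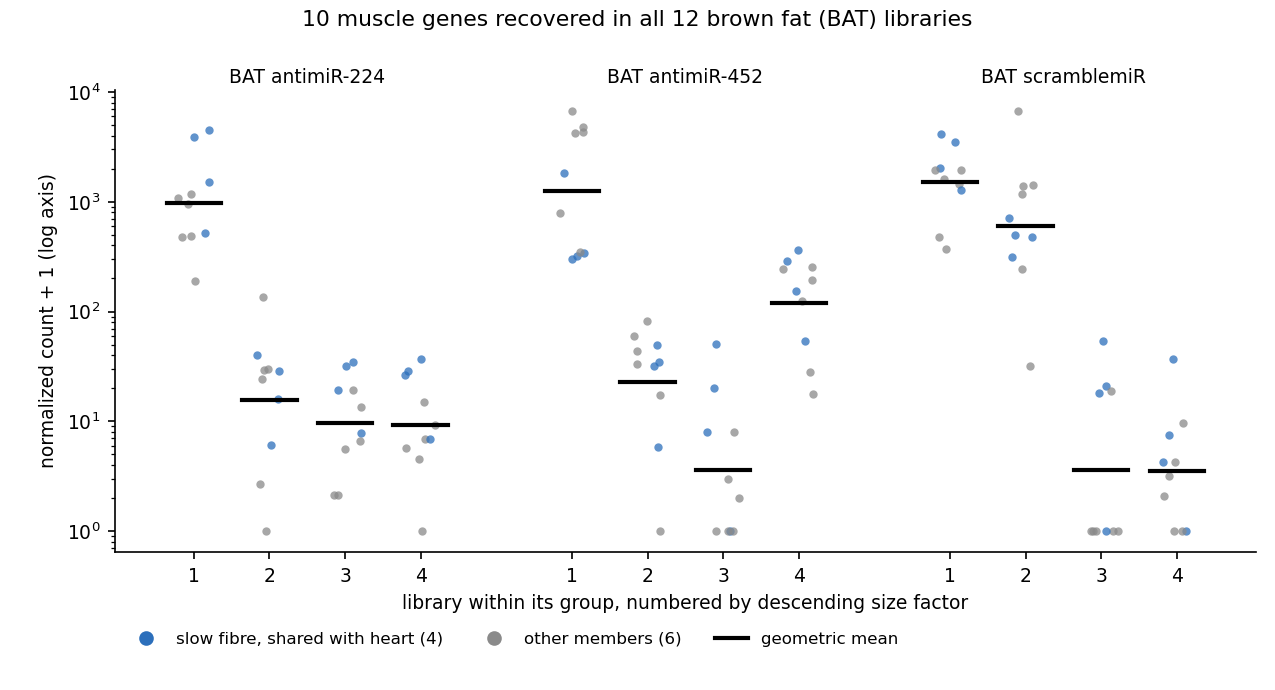
Normalized count + 1 (log axis) of the 10 members recovered in all 12 BAT libraries, by library within BAT antimiR-224, BAT antimiR-452 and BAT scramblemiR, with 1 point per gene and a bar at the geometric mean. Library 1 of BAT antimiR-224, libraries 1 and 4 of BAT antimiR-452 and libraries 1 and 2 of BAT scramblemiR stand above the rest.

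High and low libraries occurred in all 3 BAT groups. Over the 10 members recovered throughout BAT, the geometric mean was 967, 14.6, 8.67 and 8.27 normalized counts in BAT antimiR-224 libraries 1 to 4. It was 1257, 21.9, 2.62 and 120 in BAT antimiR-452, against 1500, 602, 2.62 and 2.56 in BAT scramblemiR. One library was high in BAT antimiR-224, one high and one intermediate in BAT antimiR-452, and 2 were high in BAT scramblemiR, so the ranges of the 3 groups overlap. The highest library was library 1 for 15 of 15 members recovered in BAT antimiR-224 (27.2% of all genes). It was library 1 for 12 of 14 in BAT antimiR-452 (37.7%) and library 4 for the other 2 (15.1%).

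Among the slow members, Myl3, Tnnc1 and Myh7 were about as high or higher in library 4 as in library 1 of BAT antimiR-452. Myl3, a slow and cardiac light chain, had 3918, 15, 34.0 and 36.2 normalized counts in BAT antimiR-224, 322, 31.1, 49.2 and 289 in BAT antimiR-452, and 3500.4, 480, 20.1 and 6.52 in BAT scramblemiR. Tnnc1 had 4483, 5.01, 18.1 and 28.0 in BAT antimiR-224, 338, 48.6, 7.02 and 365 in BAT antimiR-452, and 4126, 497, 16.9 and 3.26 in BAT scramblemiR. Both slow genes were about as high in BAT antimiR-224 library 1 as in BAT scramblemiR library 1. Myh7 had 914, 53.4, 1.0 and 1512 in BAT antimiR-452, where library 4 was above library 1, and several solutions in BAT antimiR-224. Myoz2 had 1500, 27.6, 6.81 and 5.83 in BAT antimiR-224, 1824, 4.86, 0 and 152 in BAT antimiR-452, and 2023, 712, 0 and 0 in BAT scramblemiR. Casq2 had 516, 39.3, 30.6 and 25.7 in BAT antimiR-224, 302, 34.0, 19.1 and 52.7 in BAT antimiR-452, and 1274, 310, 52.9 and 35.9 in BAT scramblemiR. The groups overlap for each of these slow genes.

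Within BAT antimiR-452, the members of neither fibre class described here were highest in library 1. Lmod3, a nucleator of actin filaments, had 476, 28.4, 4.54 and 5.83 in BAT antimiR-224, 4220, 42.7, 2.01 and 193 in BAT antimiR-452, and 1439, 1167, 0 and 2.17 in BAT scramblemiR. Smpx, a small muscle protein, had 1166, 29.2, 18.1 and 8.16 in BAT antimiR-224, 6732, 59.2, 0 and 243 in BAT antimiR-452, and 1966, 1380.2, 0 and 1.1 in BAT scramblemiR. Jsrp1, a protein of the junction between surface membrane and calcium store, had 1088, 23.4, 12.5 and 4.67 in BAT antimiR-224, 4848, 80.6, 1.0 and 254 in BAT antimiR-452, and 1620.4, 1412, 0 and 3.26 in BAT scramblemiR. Lmod3, Smpx and Jsrp1 share this order of libraries. Xirp1 had 945, 135, 5.67 and 14 in BAT antimiR-224, 4302, 32, 7.02 and 124 in BAT antimiR-452, and 1938, 6757, 18 and 8.70 in BAT scramblemiR. Cav3, the caveolin of muscle membranes, had 187, 1.67, 1.13 and 3.50 in BAT antimiR-224, 792, 16.5, 0 and 26.9 in BAT antimiR-452, and 368, 243, 0 and 0 in BAT scramblemiR. Sln had 489, 0, 1.13 and 0 in BAT antimiR-224, 348, 0, 0 and 16.5 in BAT antimiR-452, and 473, 31.0, 0 and 0 in BAT scramblemiR. The remaining 12 named members had no unique solution in at least 1 inhibitor group, and deposited means are printed below for some of them only.

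**Figure D3:**
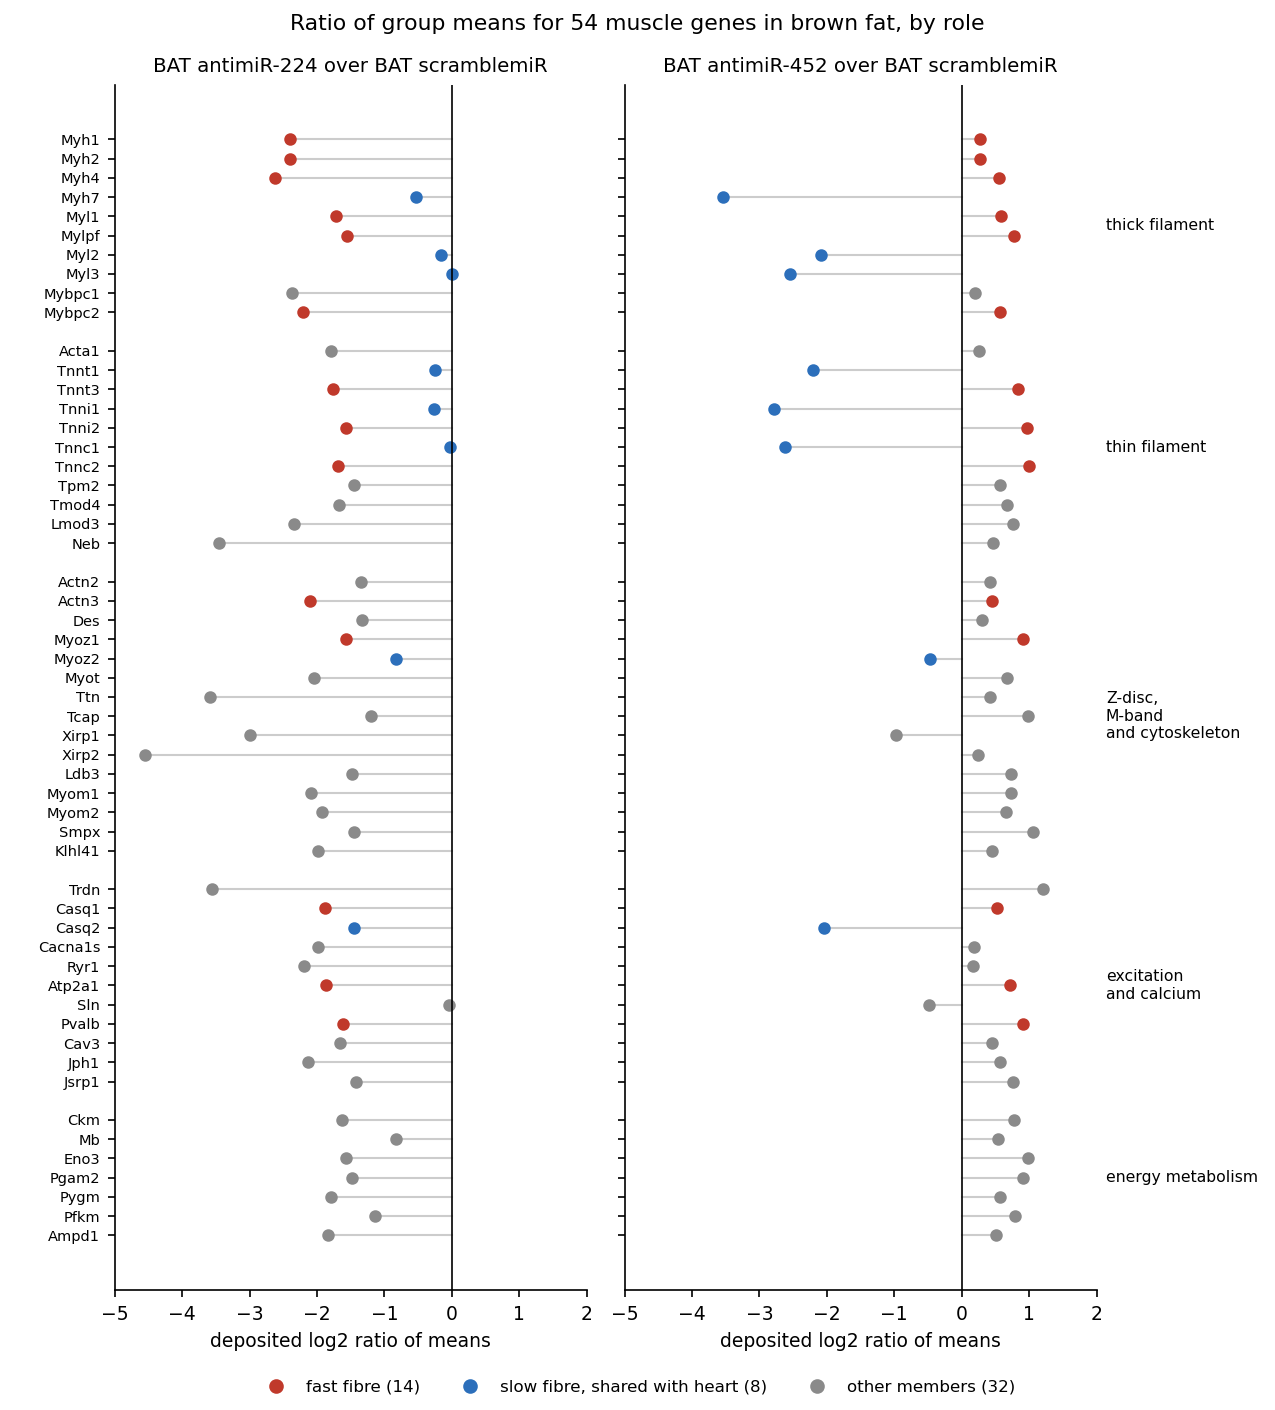
Deposited log2 ratio of group means (x axis) of BAT antimiR-224 over BAT scramblemiR (left) and BAT antimiR-452 over BAT scramblemiR (right) for the 54 members by role, with fast members in red, slow members in blue and the others in grey. On the left all lie below 0, and the median of the slow members (-0.26) is nearer to it than that of the fast members (-1.82). On the right the 14 fast members lie above 0 and the 8 slow members below.

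In the authors' deposited table for BAT antimiR-224 against BAT scramblemiR, 54 of 54 members had a log2 ratio below 0, as did 55.5% of genes with a mean of 10 or more. The members' median was -1.68, against -0.05 over all genes. None had an adjusted p under 0.05, and none of the other genes did (0% called). At an unadjusted p under 0.05 the deposited table held 1 member, Xirp2, a scaffold protein related to Xirp1, with a log2 ratio of -4.55 and an adjusted p of 1, against 1.3% of all genes. The slow members had a median of -0.26 and the fast members of -1.82. Without BAT scramblemiR library 1, an alternative chosen after seeing the data, 8 of 8 slow members were above 0, with a median of 2.47, and the 14 fast members stayed below (44.2% of all genes above 0). Myl3 averaged 1001 in BAT antimiR-224 and 1002 in BAT scramblemiR in that table, and Tnnc1 averaged 1133 and 1161. Myh4 averaged 21374 in BAT antimiR-224 and 131604 in BAT scramblemiR in the deposited table, a log2 ratio of -2.62 (adjusted p = 1). Ttn, the giant spring of the sarcomere, lay lower than Myh4 in that deposited table, at -3.59. So did Trdn, a partner of the calcium release channel, at -3.56 and Neb, the ruler of the thin filament, at -3.46. By exon length of the gene models, the 18 longest members had a median deposited log2 ratio of -2.29, the middle 18 of -1.67 and the 18 shortest of -1.57. The longest held 1 slow member, the middle 5 and the shortest 2, so these medians mix length and fibre class. Neb had 5200, 423, 149 and 167 normalized counts in BAT antimiR-224 libraries 1 to 4, against 35902, 29266, 38.1 and 30.4 in BAT scramblemiR.

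In the authors' deposited table for BAT antimiR-452 against BAT scramblemiR, 44 of 54 members had a log2 ratio above 0 (56.1% of all genes) and 10 below (43.9%). The members' median was 0.54, against 0.06 over all genes. None had an unadjusted p under 0.05 in the deposited table, against 0.375% of all genes. All 14 fast members were above 0, with a median of 0.66, and all 8 slow members below, with a median of -2.38. The place of the slow members rested on 1 control library. Without BAT scramblemiR library 1, 6 of 8 slow members were above 0, with a median of 0.08, against 57.2% of all genes, and only Myh7 (-0.57) and Casq2 (-0.39) were below. Without library 3 or library 4 of BAT scramblemiR, 12 of 14 fast members were above 0. In that deposited table, Myh4 averaged 194033 in BAT antimiR-452 and 132308 in BAT scramblemiR (log2 ratio 0.55), and Myh7 averaged 620 and 7207 (log2 ratio -3.54). Tnnc2 averaged 31407 and 15746 (log2 ratio 1.0), and Tnnc1 averaged 190 and 1168 (log2 ratio -2.62), again from the deposited table. From the deposited means, Myh7 made up 15.4% of the 4 heavy chains in BAT antimiR-224, 0.267% in BAT antimiR-452 and 4.22% in BAT scramblemiR. Slow Tnnc1 stood at 23.2% of Tnnc2 in BAT antimiR-224, 0.604% in BAT antimiR-452 and 7.41% in BAT scramblemiR. Slow Myl3 stood at 45.1% of fast Myl1 in BAT antimiR-224, 1.57% in BAT antimiR-452 and 13.8% in BAT scramblemiR. The control values of these shares rest mainly on the same library 1, which held most of the control counts of the slow genes. In BAT antimiR-224, the slow counts also rest mainly on library 1. Myl3 had 3918, 15, 34.0 and 36.2 in its libraries 1 to 4, and Tnnc1 had 4483, 5.01, 18.1 and 28.0. The fast genes had several solutions in both inhibitor groups, so the spread of these shares between libraries is not known there.

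Limma on the recovered values called 0 of 15 members for BAT antimiR-224 and 0 of 14 for BAT antimiR-452, against 0% of all genes called in both. In both fits 0 of 14 fast members and 0 of 7 energy metabolism members could be tested. Of the 8 slow members, 4 were tested for BAT antimiR-224 and 8 for BAT antimiR-452. These fits thus say nothing about the fast members. Without adjustment 5.52% and 4.12% of all genes were under 0.05, and 0 members. The direction of these members rested on single libraries. Their median log2 difference for BAT antimiR-224 minus BAT scramblemiR was -0.85, 0.80 without BAT scramblemiR library 1, 0.39 without its library 2 and -2.22 without BAT antimiR-224 library 1. For BAT antimiR-452 it was -0.27, 1.61 without BAT scramblemiR library 1, 0.67 without its library 2, -1.30 without BAT antimiR-452 library 1 and 1.25 without its library 3.

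Genes outside the list with a pattern most like it over the 12 BAT libraries were sought by Pearson's r with the mean log2 value of the 10 recovered members. Among 12613 genes, St8sia5 was highest at 0.988, followed by Sgca (0.986), Popdc3 (0.986) and Vgll2. Sgca encodes a sarcoglycan of the muscle membrane and Vgll2 a cofactor of muscle transcription. The 15 highest reached down to 0.981 and also held Yipf7, Myf6, Sptb, Klhl40, Myadml2, Plcd4, Arpp21, Ppp1r27, Asb2, Dupd1 and 1 identifier without a symbol. Asb2 is the one of them on the list of further striated muscle genes. Sgca had 590, 10.03, 4.54 and 5.83 normalized counts in BAT antimiR-224, 2828, 35.0, 2.01 and 150 in BAT antimiR-452, and 967, 946, 3.18 and 2.17 in BAT scramblemiR. These values share libraries and groups and carry no test.

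BAT scramblemiR was compared with WAT scramblemiR on CPM, the reads of a gene per 1000000 reads in genes of its library. The BAT controls are among the libraries on which the members were chosen, so this comparison is not independent of the choice. Limma with Benjamini-Hochberg adjustment called 7 of 54 members, all higher in BAT: Mb, Pfkm, Des, Myh4, Atp2a1, Ckm and Casq2. The count depended on single libraries: it was 35 without BAT scramblemiR library 3, 33 without library 4, 4 without library 1 and 3 without library 2. It was 2 without WAT scramblemiR library 2 and 3 without any other WAT library. The shares of all genes called in these fits are not printed here, so these counts show only that the number was unstable. The column headers give 2 library numbers that occur in both BAT and WAT scramblemiR. Whether these mark the same mouse is not stated, and the recovered libraries cannot be tied to them, so the 8 libraries were treated as unrelated. Over all 16933 genes, 50.2% were called, 9.4% higher and 40.8% lower in BAT. Without adjustment 19 members were under 0.05 by limma, against 56.5% of all genes. The median log2 difference was 3.96 for the members and -0.51 for all genes. Scaling by median-of-ratios size factors called 40.4% of genes, 19.6% higher and 20.8% lower, with a median of -0.06, and also 7 members, all higher. Without adjustment it gave 21 members under 0.05, against 49% of all genes. Every BAT library was above every WAT library for 21 members (8.94% of all genes), every one below for 0 (40.5%), and 33 overlapped. Of the 28 further striated muscle genes, 5 were called and higher, among them Srl and Speg.

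Mb had 978, 910, 25.5 and 33.9 CPM in BAT scramblemiR, against 0.430, 0.134, 0.254 and 0.271 CPM in WAT scramblemiR. Its log2 difference was 7.06 (SE 1.20, limma adjusted p = 0.00158), and the groups do not overlap. Pfkm had 1223, 1205, 106 and 117 CPM in BAT scramblemiR, against 37.1, 37.4, 26.1 and 38.1 CPM in WAT scramblemiR, a log2 difference of 3.39 (SE 0.84, limma adjusted p = 0.00957). Des had 1948, 1363, 93.0 and 95.5 CPM in BAT scramblemiR, against 21.7, 48.4, 28.3 and 30.7 CPM in WAT scramblemiR, a log2 difference of 3.63 (SE 1.0, limma adjusted p = 0.0166). For all 3, even the low BAT libraries lay above WAT. The p-values in this comparison come from BAT libraries on which the members were chosen, so they are a description and support nothing. Myh4 had 5.95 CPM in its lowest BAT scramblemiR library, against 0.286 CPM in its highest WAT scramblemiR library. Acta1 had 8829, 8888, 4.89 and 9.17 CPM in BAT scramblemiR, against 32.8, 13.9, 22.2 and 11.9 CPM in WAT scramblemiR, a log2 difference of 3.73 that did not pass (limma adjusted p = 0.236). Both low BAT libraries lay below every WAT library for Acta1.

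**Figure D4:**
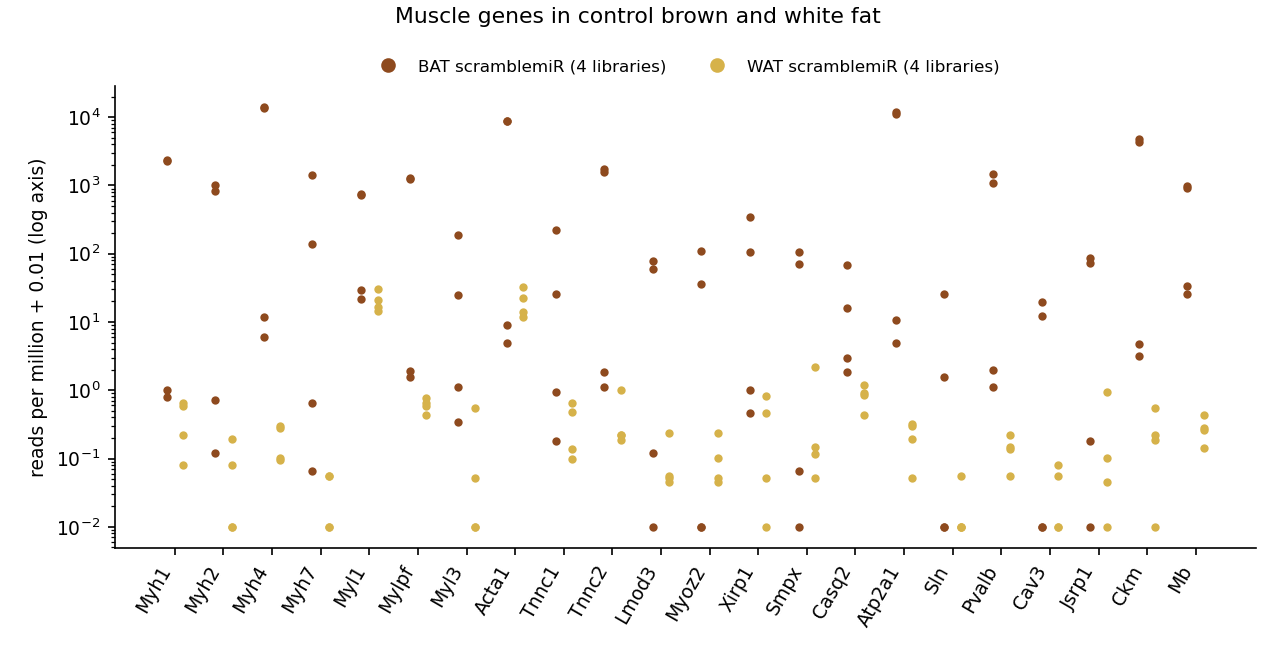
CPM, with a small constant added as named on the log axis, of the 22 genes described by library, with 4 BAT scramblemiR libraries (left of each pair) and 4 WAT scramblemiR libraries (right), 1 point per library. The 4 BAT points of Mb, Ckm, Atp2a1 and Myh4 lie above WAT, and those of Acta1 on both sides of it.

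BAT scramblemiR libraries 3 and 4 were also set against WAT scramblemiR alone. They were picked for their low muscle genes, so their differences are a description that the choice of libraries shapes. Of the 31 members tested, 20 had a log2 difference above 0 and 11 below, with a median of 0.41. The log2 difference was 4.58 for Mb, 3.0 for Myh4, 2.79 for Atp2a1, 2.02 for Ckm, 1.67 for Pfkm and 1.58 for Des. It was -1.89 for Actn3, -1.35 for Ldb3 and -1.35 for Acta1.

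Per kilobase of exon, the levels of the members can be ordered within a library. In BAT scramblemiR library 1 the highest were Acta1 at 5748 CPM per kilobase, Atp2a1 at 3234 and Myh4 at 2234, and in library 2 Acta1 at 5787, Atp2a1 at 3366 and Tnnt3, the troponin T of fast fibres, at 2571. In libraries 3 and 4 the order was another one: Pfkm led with 31.8 and 35.1 CPM per kilobase, followed by Des with 24.8 and 25.4 and Mb with 17.1 and 22.7. In WAT scramblemiR, Acta1 had 7.72 to 21.4 CPM per kilobase. These levels were not tested against each other.

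**Figure D5:**
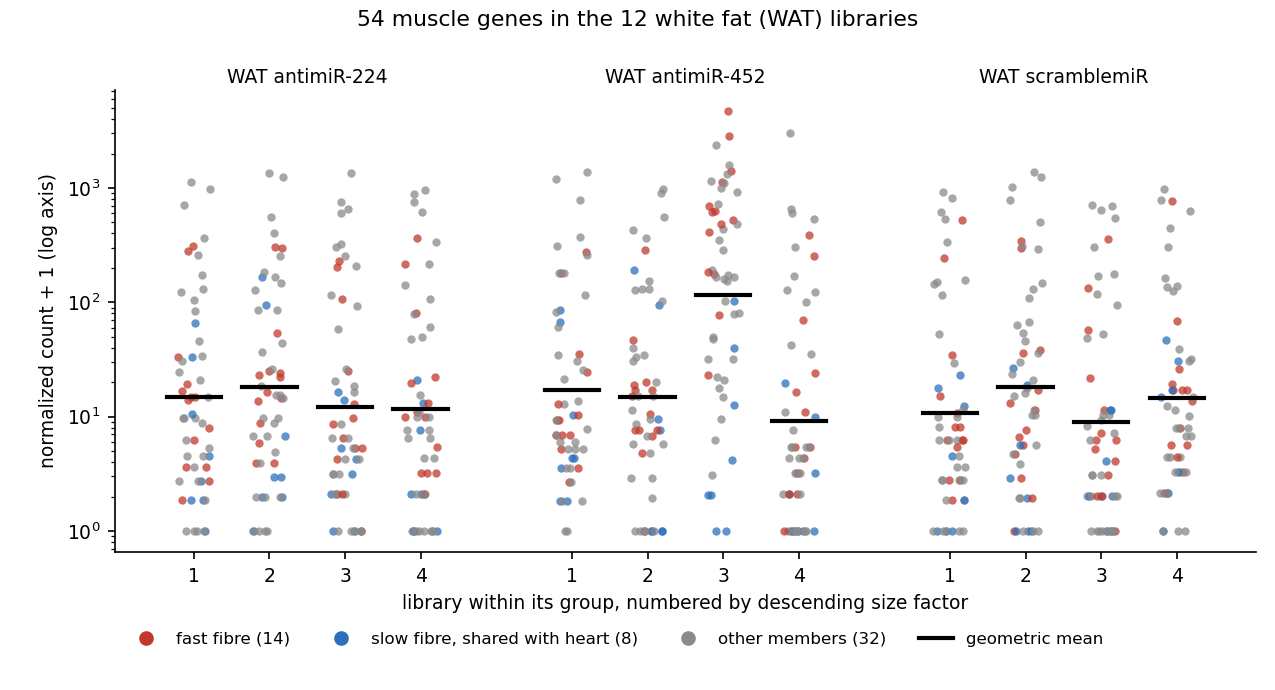
Normalized count + 1 (log axis) of all 54 members in each library of WAT antimiR-224, WAT antimiR-452 and WAT scramblemiR, with 1 point per gene coloured by fibre type and a bar at the geometric mean. Library 3 of WAT antimiR-452 stands highest, with a geometric mean of 114.

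The rule that chose the members did not use WAT, although muscle genes in WAT were known from earlier results of these data, and most members were near the detection limit there. The geometric mean over all 54 was 13.8, 17.2, 11.1 and 10.7 normalized counts in WAT antimiR-224 libraries 1 to 4. It was 16.0, 13.8, 114 and 8.07 in WAT antimiR-452, against 9.79, 17, 7.92 and 13.5 in WAT scramblemiR. One library, WAT antimiR-452 library 3, stands apart. It was the highest of its group for 40 of 46 members that reached 10 in any library of that group, against 14.8% of all genes. Some of these members, among them Myh4, Ckm and Xirp2, reached 10 in library 3 alone. Their highest library was thereby fixed by the minimum, so the count of 40 is partly set by it. The same minimum was reached by 34 members in WAT antimiR-224 and 38 in WAT scramblemiR. The geometric means above cover all 54 members and do not depend on this minimum.

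For WAT antimiR-224 against WAT scramblemiR, limma with Benjamini-Hochberg adjustment called 0 of 28 members with a mean of 10 or more, against 0% of all genes. Without adjustment 2 members were under 0.05 (5.88% of all genes): Myl1, with a log2 difference of -0.73 (SE 0.28), and Mb, with one of 1.60 (SE 0.70). The limma adjusted p was 0.842 for both. Myl1 had 281, 300, 204 and 364 normalized counts in WAT antimiR-224, against 520, 343, 353 and 763 in WAT scramblemiR, so the ranges overlap. Mb had 29.6, 42.7, 19.6 and 6.65 in WAT antimiR-224, against 10.6, 2.82, 6.25 and 6.89 in WAT scramblemiR. Neither had an unadjusted p under 0.05 in the authors' deposited table, where 0 of 28 members did, against 2.29% of all genes. At an adjusted p under 0.05 the deposited table held 0 members and 0.00559% of all genes. Of these 28 deposited ratios, 17 were above 0 (47.1% of all genes), and the median was 0.19. Acta1 had 173, 147, 1343 and 954 in WAT antimiR-224, against 812, 292, 547 and 302 in WAT scramblemiR, and spread more within WAT antimiR-224 than between the groups. Pgam2, a muscle enzyme of glycolysis, had 20.1, 14.6, 301 and 48.8 in WAT antimiR-224, against 1.77, 1244, 1.04 and 6.89 in WAT scramblemiR, so 1 control library held nearly all of the control counts.

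For WAT antimiR-452 against WAT scramblemiR, limma called 0 of 40 members, against 0% of all genes. Only 24 members passed the minimum mean when library 3 was left out, so the others entered through that library. Without adjustment 2 members were under 0.05 (4.49% of all genes): Tnnt1, a slow troponin T (log2 difference 1.67, SE 0.71), and Myoz1, a Z-disc protein of fast fibres (2.74, SE 1.21). Myoz1 had 8.42, 5.70, 176 and 3.33 normalized counts in WAT antimiR-452, against 0.885, 1.88, 1.04 and 1.15 in WAT scramblemiR, and passed the minimum mean only through library 3, so its difference supports nothing. The limma adjusted p was 1 for both. Tnnt1 had 66.6, 192, 101 and 18.9 normalized counts in WAT antimiR-452, against 16.8, 25.4, 10.4 and 45.9 in WAT scramblemiR, with overlapping ranges. In the authors' deposited table, 34 of 39 members with a mean of 10 or more had a ratio above 0 (43.3% of all genes) and 5 below (56.7%). Members near 0 in WAT scramblemiR, such as Myh4, Ckm and Atp2a1, passed that minimum only through library 3 of WAT antimiR-452. Their ratio above 0 was thereby fixed, so these counts support nothing. Of the 39 members, 1 had an unadjusted p under 0.05 in the deposited table (3.72% of all genes). That one was Myot, a Z-disc protein, with a log2 ratio of 3.57 and an adjusted p of 0.601 in the deposited table. Myot had 59.8, 130, 167 and 0 in WAT antimiR-452, against 0, 0, 0 and 29.9 in WAT scramblemiR. The median limma log2 difference over the members tested was 1.0, and 0.08 without library 3.

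In WAT antimiR-452, Ckm had 5.90, 8.56, 1601 and 3.33 normalized counts, against 5.31, 3.76, 0 and 13.8 in WAT scramblemiR. Atp2a1 had 11.8, 9.51, 2833 and 0 in WAT antimiR-452, against 7.08, 6.58, 1.04 and 4.59 in WAT scramblemiR. Mylpf had 23.6, 18.1, 409 and 23.3 in WAT antimiR-452, against 14.2, 16.0, 10.4 and 16.1 in WAT scramblemiR. Each of these fast or common muscle genes was high in library 3 alone. The slow Myh7 had 3.37, 6.66, 1.06 and 0 in WAT antimiR-452, against 0, 0.94, 0 and 1.15 in WAT scramblemiR, and Tnnc1 had 9.27, 8.56, 11.6 and 2.22 in WAT antimiR-452. Library 3 was thus high for fast genes and not for these slow ones. The 27 recovered further striated muscle genes had geometric means of 33.4, 23.0, 84.8 and 15.8 in WAT antimiR-452, against 13.9, 26.2, 13.6 and 18.9 in WAT scramblemiR. Myf6 had 0, 0, 10.6 and 0 in WAT antimiR-452, so it was detected in library 3 alone. Acta1 differed from the fast genes, with 179, 366, 2370 and 3014 in WAT antimiR-452.

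A few members were present in every WAT library. Des had 651 to 1247 normalized counts in WAT antimiR-224, 532 to 1185 in WAT antimiR-452 and 537 to 1015 in WAT scramblemiR. Pfkm had 559 to 753 in WAT antimiR-224, 553 to 1140.2 in WAT antimiR-452 and 643 to 969 in WAT scramblemiR. Desmin is also made by smooth muscle, and both genes overlapped between the WAT groups. Exons of 21 members, among them Mb, Des and Pfkm, share bases with a gene on the opposite strand. Whether counting used strand is not given in the sources used here. Pfkm also shares bases with a gene on the same strand, which strand cannot separate.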

How the data were processed

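RNA was extracted with Trizol, poly-A selected and made into libraries with a directional kit, per the labels' protocols. The submitters' processing notes name DESeq 1.10.1, R 2.15.3 and GRCm38.p4. No source used here names the aligner, counter or annotation. The authors deposited 4 tables, normalized separately, with a mean signal (normalized count) per group. Per the file headers, they also hold the ratio of both means, its log2 value, the p-value and the adjusted p-value.

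Reads per library were recovered with Python 3.11.15 and numpy 2.4.6 from means printed to 15 digits. A unique solution was found for 100% of genes in scramblemiR and 92.5% to 95.6% in the inhibitor groups, and the procedure was tested on simulated data. Control values are scaled as in the antimiR-224 tables. No pair of libraries within a group agreed within sampling noise, and the lowest chi-square per degree of freedom was 13.3. Limma 3.58.1 (trend, robust; R 4.3.3) was run on log2(value + 1) over all genes with a mean of 10 or more (tissue comparison: CPM, mean of 0.5 or more), with Benjamini-Hochberg adjustment at 0.05. Fold changes on this scale understate changes of low genes. Gene models are GENCODE M21. The members and all gene lists were chosen with earlier results of these data known. Genes named by library were 22: up to 4 per role with the highest control mean among those recovered in all BAT groups, plus 14 fixed muscle genes. Other genes were named after their values were seen.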

Additional observations from a re-analysis of the deposited data

Results flagged for a closer look

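Each value below stood far from the other 3 libraries of its group on the log2(value + 1) scale, with a gap to the nearest library that passed Dixon's criterion as a share of the group's range. Of 87 groups of 4 values looked at, 8 passed. Chance would flag about 1 in 20 independent groups, but these genes share libraries, so the number that passed cannot be set against that rate. The members were listed for their variation between BAT libraries, so the 5 values from BAT are a description.

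In BAT antimiR-224, library 1 was high for 4 members and for the members together. Myl3 had 3918 normalized counts there, against 15 to 36.2 in the other 3 libraries. Casq2 had 516, against 25.7 to 39.3. Cav3 had 187, against 1.13 to 3.50, and Sln had 489, against 0 to 1.13. The geometric mean of the 10 recovered members was 967, against 8.27 to 14.6.

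In WAT antimiR-452, library 3 was high for 2 members. Ckm had 1601 normalized counts there, against 3.33 to 8.56 in the other 3 libraries, and Mylpf had 409, against 18.1 to 23.6. In WAT scramblemiR, Tnnc2 had 25.3 in library 4, against 3.76 to 5.31 in the others.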

How the results depend on the processing

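No tested member was called by limma for either inhibitor in either tissue under any alternative run. The alternatives were other pseudocounts, filters, no robust variance and each library left out. Chosen after seeing the data, the muscle-rich BAT libraries were also left out, a selection by the members' own levels that supports nothing. In BAT, 0 of 14 fast members could be tested, since their reads were not recovered in the inhibitor groups. The tissue comparison depended on the setting. Its 7 called members became 3 with a pseudocount of 5 and 2 to 35 with 1 library left out. The shares of all genes called in these fits are not printed here. Without BAT scramblemiR libraries 1 and 2, again selected by the members' levels, 13 of 31 tested members were called (38.5% of all genes). Of these 13, 10 were higher and 3 lower in BAT. With fewer libraries fewer samples enter, and the cause was otherwise not tested. Other settings gave 5 to 10.

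On the ratio of means in BAT, leaving out 1 control library, chosen after seeing the data, gave 0 to 8 slow members above 0 for antimiR-224 and 0 to 6 for antimiR-452, against 0 with all libraries in both.

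Of 544 alternative values of single members, 6 reversed in sign. For WAT antimiR-224 minus WAT scramblemiR, leaving out 1 library gave log2 differences of -0.62 to 0.45 for Acta1 and -0.040 to 0.91 for Casq2. Acta1 in BAT minus WAT controls was -1.35 without the 2 muscle-rich libraries, against 3.73 with them. Without WAT antimiR-452 library 4, limma called 529 genes, of which 0 were members.

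No paired analysis was possible because the recovered libraries cannot be tied to the replicate numbers in the titles or to the library numbers in the column headers, of which BAT and WAT share 2 in antimiR-224, 3 in antimiR-452 and 2 in scramblemiR. Most highly abundant members had several solutions in the BAT inhibitor groups, so their spread there is not known.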
